A study of Mus musculus with 4 samples.

Results

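Chromatin accessibility was examined at 9 genes that control entry of cells into the division cycle: Myc, Ccnd1, Ccnd2, Ccne1, Cdk4, Cdk6, Cdkn1a, Cdkn1b and E2f1. Peaks of 4 ATAC-seq libraries were merged where they shared at least 1 bp, giving 82641 regions on the mm10 mouse genome (GRCm38). Of these, 114 regions overlapped the body of one of the 9 genes or the 50 kb on either side of it, and these 114 are described here. ATAC-seq uses the Tn5 transposase to insert sequencing adapters into open chromatin, so that a peak marks a stretch of accessible DNA.

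The libraries came from keratinocytes of skin that had received a 5% imiquimod cream daily over 8 days, an agent that activates TLR7 and inflames the skin. There were 2 libraries of genotype Wild Type (WT) and 2 of genotype Mapk8-KO, named here by genotype and replicate number. Mapk8 encodes the kinase JNK1, and the comparison asks how accessibility differs when keratinocytes lack it. All 4 libraries share the imiquimod treatment, and no untreated library was analysed here.

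Per the study's methods, Mapk8-KO mice carried floxed Mapk8 alleles (Mapk8 fl/fl) and a keratin 14-driven Cre recombinase, so that the deletion was directed to the epidermis. The mice were age-matched adult females on a C57BL/6 background with littermates as controls, and EpCam+ CD49f hi epidermal cells were sorted from dissociated skin. The labels do not say whether a library came from 1 animal or from pooled animals. P-values therefore measure only the spread between these libraries. In bulk libraries, fewer cells with an open region and a less open region in each cell cannot be told apart.

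Cells commit to division late in G1. Growth signals raise Myc, a transcription factor, and the D-type cyclins encoded by Ccnd1 and Ccnd2, which bind the kinases Cdk4 and Cdk6. These kinases begin to inactivate the retinoblastoma protein and so release E2F factors such as E2f1, which switch on Ccne1 (cyclin E1) and the genes of DNA replication. Cdkn1a (p21) and Cdkn1b (p27) inhibit the cyclin-dependent kinases. JNK phosphorylates c-Jun, a subunit of the AP-1 transcription factors, which are active in proliferating and inflamed epidermis. Myc binds DNA with its partner Max at the E-box sequence CACGTG.

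The sequences below are those on which the comparisons of single regions turn: the regions called in 1 genotype only, the Cdk4 promoter, the 2 AP-1 regions downstream of Myc that were lowest in 1 Mapk8-KO library, the highest-ranked region outside promoters at Cdk6, and the only promoter region of Ccnd1. Each is the 201 bp around the strongest summit, read 5′ to 3′ on the plus strand of GRCm38 (RefSeq genome sequence), and is named by the gene and the distance in kb from its start site in the direction of transcription. Capitals mark a match on either strand to TGAGTCA (AP-1), CACGTG (E-box), GGAATG (TEAD, a partner of YAP) or TTTCCCGC (E2F), and a window without capitals holds none of these.
Cdk4 at -0.141 kb, chr10:127063293-127063493, with 3 E-boxes: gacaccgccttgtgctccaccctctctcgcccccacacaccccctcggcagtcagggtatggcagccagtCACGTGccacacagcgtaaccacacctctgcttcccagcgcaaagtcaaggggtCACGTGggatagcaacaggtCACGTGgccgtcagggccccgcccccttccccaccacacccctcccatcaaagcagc
Cdk6 at +122.6 kb, chr5:3466348-3466548, with AP-1: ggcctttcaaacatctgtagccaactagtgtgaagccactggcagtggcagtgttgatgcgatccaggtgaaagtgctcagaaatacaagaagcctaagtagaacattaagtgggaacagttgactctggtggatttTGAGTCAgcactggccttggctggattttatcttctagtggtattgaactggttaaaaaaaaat
Cdk6 at +129.1 kb, chr5:3472919-3473119: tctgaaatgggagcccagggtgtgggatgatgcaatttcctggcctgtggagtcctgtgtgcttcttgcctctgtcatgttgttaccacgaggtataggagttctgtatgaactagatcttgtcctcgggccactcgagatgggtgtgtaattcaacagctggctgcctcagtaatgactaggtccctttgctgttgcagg
Ccne1 at +21.4 kb, chr7:38086052-38086252, with TEAD: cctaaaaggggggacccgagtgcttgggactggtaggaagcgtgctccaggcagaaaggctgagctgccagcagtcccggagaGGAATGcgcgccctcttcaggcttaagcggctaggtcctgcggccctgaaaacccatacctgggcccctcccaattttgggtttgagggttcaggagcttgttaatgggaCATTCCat
Ccne1 at -34.4 kb, chr7:38141787-38141987, with TEAD: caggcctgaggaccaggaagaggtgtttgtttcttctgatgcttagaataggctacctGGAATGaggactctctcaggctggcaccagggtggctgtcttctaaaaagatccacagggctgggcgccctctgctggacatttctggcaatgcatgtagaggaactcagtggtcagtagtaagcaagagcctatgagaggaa
Myc at +43.1 kb, chr15:62028436-62028636, with AP-1: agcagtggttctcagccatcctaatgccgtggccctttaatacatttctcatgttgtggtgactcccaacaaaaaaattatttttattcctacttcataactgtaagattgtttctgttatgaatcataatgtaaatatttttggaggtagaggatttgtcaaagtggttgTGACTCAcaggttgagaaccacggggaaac
Myc at +44.5 kb, chr15:62029836-62030036, with AP-1: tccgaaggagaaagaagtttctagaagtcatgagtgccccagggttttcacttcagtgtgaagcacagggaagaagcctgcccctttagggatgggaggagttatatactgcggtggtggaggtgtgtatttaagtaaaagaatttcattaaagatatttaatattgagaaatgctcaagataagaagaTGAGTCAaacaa
Cdk6 at -42.6 kb, chr5:3301186-3301386, with AP-1: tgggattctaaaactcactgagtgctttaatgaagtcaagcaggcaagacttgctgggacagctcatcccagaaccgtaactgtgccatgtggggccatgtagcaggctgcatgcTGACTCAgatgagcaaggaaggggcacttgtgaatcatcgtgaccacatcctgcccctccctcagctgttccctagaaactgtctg
Ccnd1 at -1.77 kb, chr7:144941537-144941737, with E2F: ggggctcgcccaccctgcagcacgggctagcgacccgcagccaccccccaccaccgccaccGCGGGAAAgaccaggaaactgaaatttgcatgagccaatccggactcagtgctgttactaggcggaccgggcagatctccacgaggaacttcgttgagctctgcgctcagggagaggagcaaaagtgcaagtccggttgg

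The peak lists held 49856 to 69927 intervals, and both replicate 2 libraries were the shorter and shallower ones. From the deposited fold and p-values the pileup of fragments at every summit was recovered, and it was 49 and 34 in WT 1 and 2 and 54 and 30 in Mapk8-KO 1 and 2 at the median of 40159 regions called in all 4 libraries. Total read depth is not given in the files. Where values of 4 libraries follow each other below, they stand in the order WT 1, WT 2, Mapk8-KO 1, Mapk8-KO 2. Promoters of 6 of 7 keratinocyte markers were called in all 4 libraries, and the exception was Krt5, with no call in Mapk8-KO 2. Promoters of 6 immune markers, Ptprc (CD45) among them, had no call in any library. The sort also stained for CD31 and CD140a, encoded by Pecam1 and Pdgfra, and both promoters were called in every library. The Pecam1 promoter held 33, 41, 43 and 22 fragments and the Pdgfra promoter 41, 26, 58 and 34. Promoters of 2 of 4 endothelial, 2 of 4 fibroblast and 3 of 4 melanocyte markers were called in all 4 libraries. The endothelial marker Kdr was called in all but Mapk8-KO 2, and the remaining markers of these 3 cell types had no call. Summed fragments of the called promoters were 111 and 90 in WT against 102 and 40 in Mapk8-KO for endothelial markers. They were 63 and 48 against 82 and 45 for fibroblast markers, and 141 and 96 against 169 and 120 for melanocyte markers, whose Pmel promoter is shared with Cdk2. The part of other cells in the values that follow was not tested. The Krt14 promoter held 38 and 17 fragments in WT against 199 and 109 in Mapk8-KO, whose Cre transgene is driven by keratin 14 sequence. Whether reads of the transgene add to these values was not tested. The Mapk8 promoter held 96, 73, 109 and 90 fragments. The position of the floxed part is not given in the sources used here, so this value does not check the deletion.

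Most regions of the 9 genes were open in both genotypes. Of the 114 regions, 62 (54.4%) were called in all 4 libraries, against 48.6% of all regions. Cdk6, whose gene body is the longest at 189.5 kb, held 32 regions. Myc and Cdkn1a held 14 each, Cdk4 13, Ccnd1 10, Ccne1 9, Cdkn1b and E2f1 8 each, and Ccnd2 6. The members' own promoters, defined as the 2 kb on either side of a transcription start site, accounted for 17 regions, promoters of neighbouring genes for 26, and sequence outside promoters for 71.

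The number of the 114 regions called was 101 in WT 1 and 80 in WT 2, against 100 and 73 in Mapk8-KO 1 and 2. The count was higher in each replicate 1 library, where the median pileup was also higher, than in either replicate 2 library. The part of depth in this was not tested. The means were 90.5 ± 14.8 (SD, n = 2) in WT and 86.5 ± 19.1 (SD, n = 2) in Mapk8-KO, and the difference of 4 was smaller than either spread (two-sided exact permutation test, p = 0.667). This design cannot give a p below 0.333. With lists shortened to equal length the difference was -0.5 regions.

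Fragments at the summits of the 62 shared regions were compared with limma on the log2 scale after centring each library at its median, and p-values were adjusted over all 40159 regions by the Benjamini-Hochberg method. None of the 62 passed an adjusted p of 0.05, where 0.11% of all regions were higher and 0.496% lower in Mapk8-KO. The lowest adjusted p among the 62 was 0.112. At an unadjusted p under 0.05, 3 regions (4.84%) were higher and 2 (3.23%) lower, against 5.82% and 5.44% of all regions. The shares at the 9 genes were thus no higher than over all regions. Without Mapk8-KO 1, 4 of the 62 passed (6.45%), against 4.25% of all regions in that fit, and these are named with their genes.

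The median log2 change, Mapk8-KO minus WT, was 0.04 over the 62 regions and 0.05 over all regions. In 17 of the 62 (27.4%) both Mapk8-KO libraries lay above both WT libraries after scaling, and in 9 (14.5%) both lay below. The same held for 24.6% and 16.9% of all regions. Over the 13 own promoter regions called in all 4 libraries the median was 0.20, against 0.14 over all promoter regions, and over the 30 regions outside promoters it was -0.02, against -0.01.

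**Figure D1:**
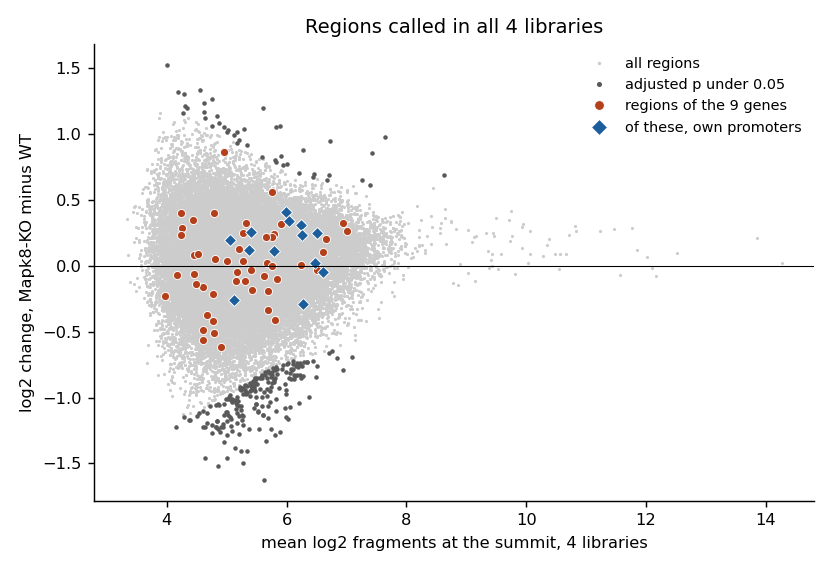
Log2 change in fragments at the summit, Mapk8-KO minus WT (vertical axis), against the mean log2 fragments over the 4 libraries (horizontal axis), for 40159 regions called in all 4. Grey points are all regions, dark points are the 243 with an adjusted p under 0.05, and the 62 regions of the 9 genes (circles, with own promoters as diamonds) lie inside the grey cloud.

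The promoter values of Myc lay close together in the 4 libraries. The region chr15:61984767-61985755, over the start site, held 106 fragments in WT 1 and 74 in WT 2, against 117 and 67 in Mapk8-KO 1 and 2. Divided by each library's median, these values were 2.16, 2.18, 2.17 and 2.23, and the log2 change was 0.02 ± 0.18 (SE; limma, adjusted p = 0.983). Its sign turned under 4 of the 9 other fits and leave-outs. A high pileup here did not give a high rank: the fold enrichment stood at percentiles 27.0, 25.3, 23.0 and 10.8 of the lists, where the local background that MACS2 divides by was 18.8, 11.9, 23.1 and 14.0 fragments.

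The local background was also high at the median of the 9 genes' promoters. In WT 1 its median was 10.9 fragments over the own promoter regions called in all 4 libraries and 4.97 over all promoter regions, and in the other libraries 6.75 against 3.29, 11.5 against 5.60, and 6.73 against 3.36. The median fold percentile of the own promoters accordingly ran from 19.6 to 38.6 in the 4 libraries, and that of all promoter regions from 64.0 to 71.6. Fragments and fold ranks therefore order these promoters differently, and both are given.

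The other Myc promoter regions lay at -1.85 kb, with 74, 39, 75 and 44 fragments, and at +1.78 kb in the first intron, with 79, 59, 103 and 68. The fold percentiles of both were under 10 in every library. A further region at -0.935 kb was called in both replicate 1 libraries only, as were 9 of the 114 regions (7.89%) and 7.91% of all regions.

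Downstream of Myc, which is the nearest coding gene there, 6 regions outside promoters with summits from +6.64 to +44.5 kb were called in all 4 libraries. The highest-ranked, here and below by mean fold percentile among regions called in all 4 libraries, was at +13.6 kb (chr15:61998653-61999464), with 94, 61, 128 and 44 fragments and fold percentiles of 88.0, 87.3, 96.3 and 79.1. Its log2 change was 0.01 ± 0.19 (SE). The AP-1 motif TGAGTCA stood within 100 bp of the summit in 4 of these regions, at +6.64, +18.8, +43.1 and +44.5 kb.

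The 2 farthest AP-1 regions of Myc, whose sequences are printed above, were lowest in Mapk8-KO 2. At +44.5 kb there were 45 fragments in WT 1 and 31 in WT 2, against 48 and 12 in Mapk8-KO 1 and 2, and the fold percentiles were 68.0, 63.5, 71.5 and 19.3. At +43.1 kb the fragments were 37, 24, 36 and 11. Scaled for depth, Mapk8-KO 1 lay near the WT libraries and Mapk8-KO 2 far below them. The log2 changes of -0.62 ± 0.28 and -0.56 ± 0.30 (SE) did not pass (limma, adjusted p = 0.365 and 0.467). Without Mapk8-KO 1 the change at +44.5 kb was -1.19 (adjusted p = 0.0134), and it came down to -0.01 at the other extreme of the fits, so the difference rested on Mapk8-KO 2. The AP-1 regions at +6.64 kb (62, 42, 76 and 30 fragments) and +18.8 kb (57, 45, 78 and 33) had log2 changes of -0.08 and 0.02.

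**Figure D2:**
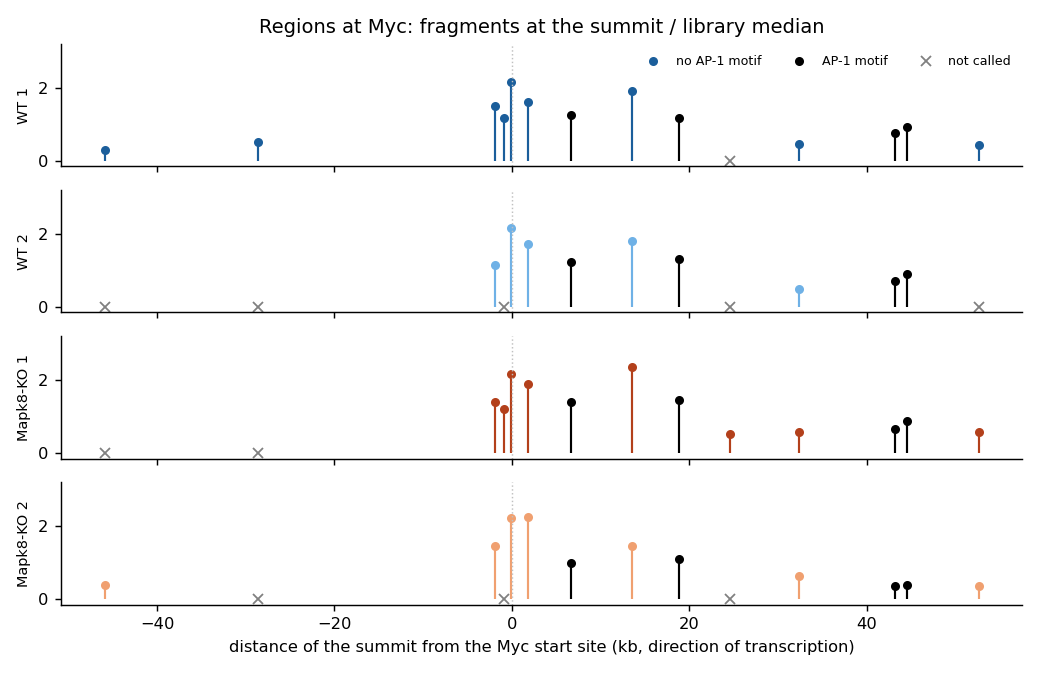
Regions at Myc in each library, with the distance of the summit from the start site in kb on the horizontal axis and fragments at the summit divided by the library's median on the vertical axis. Black stems carry the AP-1 motif and crosses mark regions with no call; the stems at +43.1 and +44.5 kb are short in Mapk8-KO 2 and alike in the other 3 libraries.

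The start site of Ccnd1, the cyclin D1 gene, lay in no called region. Its only promoter region was centred at -1.77 kb (chr7:144941358-144941770) and held 39, 38, 48 and 21 fragments. Scaled, the values were 0.796, 1.12, 0.889 and 0.700, so the genotypes overlapped, and the log2 change was -0.26 ± 0.26 (SE; limma, adjusted p = 0.755). This window holds an E2F motif, found in 2.08% of all promoter regions. The highest-ranked region outside promoters at Ccnd1 was intergenic at -31.6 kb (chr7:144970952-144971988), with 143, 97, 170 and 115 fragments, more than at any other region of the 9 genes in each library except Mapk8-KO 2. Its log2 change was 0.27 ± 0.17 (SE). Of the 10 regions, 3 were called in all 4 libraries and another 3 in all but Mapk8-KO 2.

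At Ccnd2 (cyclin D2), the promoter region at -1.54 kb (chr6:127152349-127152759) held 70, 49, 78 and 69 fragments. The scaled values were 1.43, 1.44, 1.44 and 2.30, so that Mapk8-KO 2 alone stood higher. The log2 change was 0.35 ± 0.20 (SE; limma, adjusted p = 0.520), and it passed only without Mapk8-KO 1 (0.68, adjusted p = 0.0427). A smaller region over the start site held 56, 71 and 44 fragments in WT 1, Mapk8-KO 1 and Mapk8-KO 2 and had no call in WT 2. Outside promoters, the region at -2.66 kb had the most fragments, 54, 47, 68 and 49, and the one with the highest fold percentile was in an intron at +8.76 kb, with 22, 14, 26 and 16 fragments. The log2 change at +8.76 kb was 0.24 ± 0.31 (SE).

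Cdk4, the kinase partner of the D cyclins, was the only one of the 9 genes whose own promoter passed the rank gap described further on. Its region chr10:127063183-127063817 held 64 fragments in WT 1 and 48 in WT 2, against 94 and 56 in Mapk8-KO 1 and 2, or 1.31, 1.41, 1.74 and 1.87 times the library medians. Fold enrichment was 6.44 and 6.48 in WT against 8.16 and 7.77 in Mapk8-KO, at percentiles of 41.4 and 35.2 against 60.5 and 54.0. The groups did not overlap, as in 24.6% of all regions in this direction. The log2 change was 0.41 ± 0.20 (SE), with an unadjusted p of 0.0412 and an adjusted p of 0.420 in limma. It was between 0.32 and 0.48 in the other fits and leave-outs, and none of them brought the adjusted p under 0.05 (0.234 to 0.880).

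The Cdk4 window printed above holds CACGTG 3 times within 100 bp of its summit. At least 3 copies stood in 9 of 22032 promoter regions (0.0408%), and at least 1 copy in 6.42%. Cdk4 lies in a cluster of short genes, and 9 of its 13 regions were promoters of neighbours. The neighbouring March9 promoter at -3.14 kb held 63, 46, 80 and 55 fragments, and its log2 change was 0.32 ± 0.20 (SE). The region outside promoters with the highest rank was in a coding exon of Agap2 at +28.2 kb, with 39, 22, 31 and 16 fragments and a log2 change of -0.38 ± 0.29 (SE).

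Cdk6, the other kinase of the D cyclins, held more regions than any other of the 9 genes, most of them in its long introns. Its start site region (chr5:3343657-3344763) held 104, 49, 104 and 66 fragments, or 2.12, 1.44, 1.93 and 2.20 times the medians. WT 2 was low and WT 1 lay among the Mapk8-KO libraries, and the log2 change was 0.24 ± 0.19 (SE; limma, adjusted p = 0.682). A second promoter region at -1.46 kb was weak, with 36, 27, 54 and 23 fragments. The highest-ranked region outside promoters was the AP-1 region at -42.6 kb (chr5:3300841-3301735), with 118, 75, 139 and 72 fragments at percentiles 94.0, 93.1, 95.7 and 98.2. Its log2 change was 0.11 ± 0.18 (SE).

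The number of Cdk6 regions called was 30 in WT 1 and 24 in WT 2, against 28 and 17 in Mapk8-KO 1 and 2. Of the 32, 15 were called in all 4 libraries and 7 were missing in Mapk8-KO 2 only. That pattern covered 13 of the 114 regions (11.4%) and 9.91% of all regions, and Mapk8-KO 2 had the shortest list. AP-1 motifs stood in 12 of the 32 (37.5%), and in 5 of the 7 missing in Mapk8-KO 2 only. All 7 lay outside promoters, where the motif stood in 40.8% of all regions missing in Mapk8-KO 2 only and in 28.0% of all regions. The fragments of these 7 in the other libraries ran from 11 to 60.

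**Figure D3:**
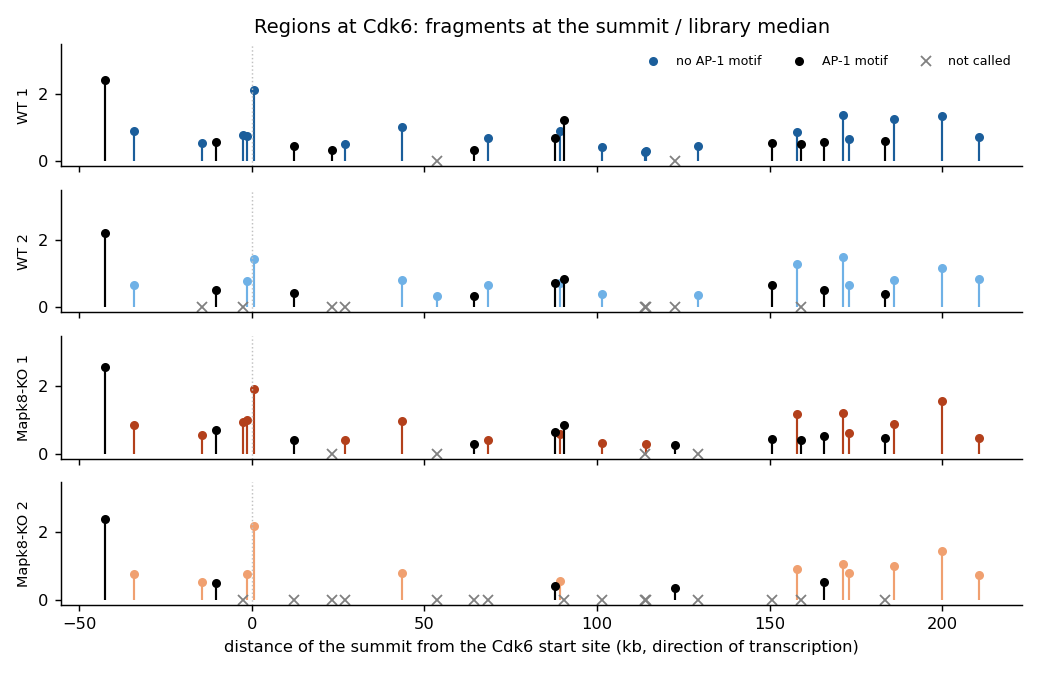
Regions at Cdk6 in each library, drawn as for Myc, with the distance of the summit from the start site in kb against fragments at the summit divided by the library's median. The region at -42.6 kb and the start site region are the highest in most libraries, and crosses (no call) are most frequent in Mapk8-KO 2, where 17 of 32 regions were called.

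Regions called in both libraries of 1 genotype and in neither of the other were few. There was 1 WT-specific region among the 114 (0.877%, against 2.17% of all regions) and there were 3 Mapk8-KO-specific regions (2.63%, against 1.65%). The WT-specific region was chr5:3472902-3473162 at Cdk6, in a noncoding exon of Gm17590 inside the gene, with 22 and 12 fragments. A Mapk8-KO-specific region with an AP-1 motif lay nearby in a Cdk6 intron (chr5:3466180-3466663), with 13 and 10 fragments. The lowest pileup called in any library was 8 to 10 fragments. The WT-specific region was at fold percentiles 51.8 and 17.9 of the WT lists, and the Mapk8-KO-specific one at 10.7 and 8.99 of the Mapk8-KO lists.

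The other Mapk8-KO-specific regions were at Ccne1, the cyclin E1 gene. The region at +21.4 kb (chr7:38085883-38086194) held 42 and 20 fragments over a local background of 12.4 and 7.74, so that its fold enrichment of 3.20 and 2.40 was at percentiles 2.23 and 0.0221. It lay beside the strong region at +22.6 kb (chr7:38084642-38085535), which was called in every library with 129, 94, 158 and 117 fragments and percentiles of 94.3, 92.3, 89.4 and 96.6. The strong region had a log2 change of 0.32 ± 0.17 (SE; limma, adjusted p = 0.467). The region at -34.4 kb (chr7:38141852-38142117) held 14 and 18 fragments. Both specific regions carry the TEAD motif, which 13.2% of all regions do.

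The Ccne1 promoter (chr7:38107314-38108168) was among the highest-ranked of the 9 genes. It held 87, 81, 111 and 87 fragments, with fold enrichment of 12.5, 13.1, 13.7 and 14.1 and percentiles from 88.0 to 94.8. The scaled values of 1.78, 2.38, 2.06 and 2.90 overlapped between genotypes, and the log2 change was 0.25 ± 0.18 (SE; limma, adjusted p = 0.644).

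The promoter of E2f1 (chr2:154568989-154570338), which encodes a factor that activates genes of S phase, held 101, 73, 102 and 47 fragments, or 2.06, 2.15, 1.89 and 1.57 times the medians, and percentiles of 93.0, 94.7, 92.8 and 76.8. Both scaled Mapk8-KO values lay below both WT values, as in 16.9% of all regions. The log2 change was -0.29 ± 0.19 (SE; limma, adjusted p = 0.582). The only region outside promoters that was called in all 4 libraries, at -39.4 kb, was weak, with 42, 31, 62 and 32 fragments and percentiles of at most 15.0.

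No region of the inhibitor genes passed limma's adjusted p of 0.05 with all 4 libraries. Cdkn1b had 1 promoter region (chr6:134920046-134920769), with 128, 77, 112 and 80 fragments and scaled values of 2.61, 2.26, 2.07 and 2.67. Its log2 change was -0.05 ± 0.18 (SE; limma, adjusted p = 0.953). The intergenic region at +51.9 kb, nearer to Apold1 than to Cdkn1b, held 79, 54, 67 and 35 fragments. It had a log2 change of -0.41 ± 0.21 (SE), with an unadjusted p of 0.0491 and an adjusted p of 0.441 in limma.

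At Cdkn1a the most upstream start site lay in no called region, and the strongest promoter region was over start sites 2.72 kb downstream of it (chr17:29093520-29093998). It held 46, 33, 66 and 32 fragments, or 0.939, 0.971, 1.22 and 1.07 times the medians. The log2 change was 0.26 ± 0.24 (SE; limma, adjusted p = 0.728). The next promoter region, at +4.52 kb, carried an AP-1 motif and held 48, 33, 57 and 32 fragments. The highest-ranked region outside promoters, at -22.9 kb in an intron of Trp53cor1, held 31, 19, 40 and 25 fragments and had a log2 change of 0.40 ± 0.28 (SE). Of 9 regions called in all 4 libraries, 8 had a log2 change above 0, as did 35 of the 62 regions of the 9 genes (56.5%) and 57.4% of all regions.

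The 2 largest positive log2 changes were in Rab44, the gene beyond Cdkn1a. At chr17:29135963-29136488, in a UTR of Rab44 and 45.3 kb from the Cdkn1a start, there were 30 fragments in WT 1 and 18 in WT 2, against 47 and 37 in Mapk8-KO 1 and 2. The percentiles were 12.3 and 6.17 in WT against 39.8 and 36.6 in Mapk8-KO, a gap of 24.2 points. The log2 change was 0.86 ± 0.27 (SE; limma, unadjusted p = 0.00156, adjusted p = 0.112). At 43.4 kb (chr17:29134137-29134801) the fragments were 56, 36, 68 and 63 and the log2 change was 0.56 ± 0.21 (SE; limma, adjusted p = 0.242). Both passed only without Mapk8-KO 1 (adjusted p = 0.0195 and 0.00600), with changes of 1.12 and 0.93, and were above 0 in every fit. Both lie in promoters of other genes and count for Cdkn1a only by distance.

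**Figure D4:**
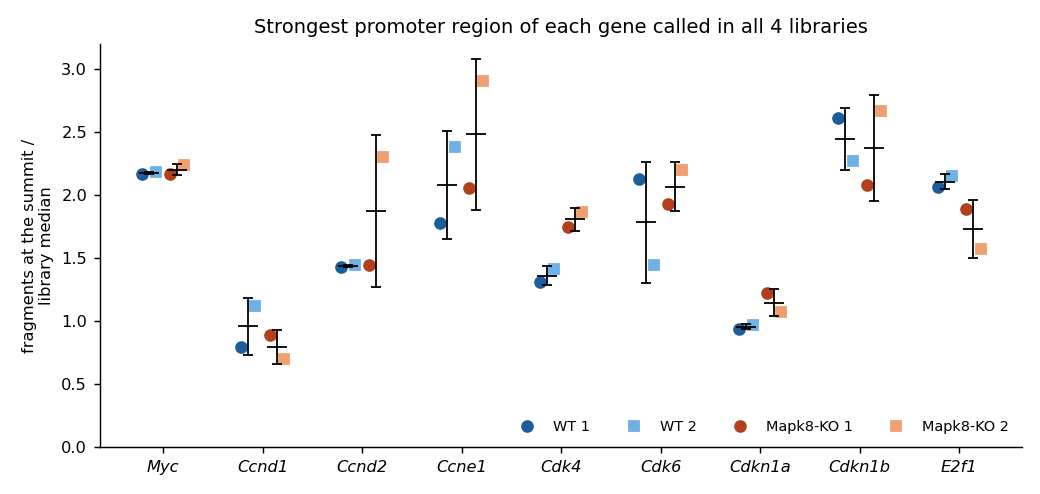
Strongest promoter region of each gene among those called in all 4 libraries, as fragments at the summit divided by the library's median over shared regions (vertical axis). Points are libraries and bars are the mean ± SD of 2 libraries; the Cdk4 values of Mapk8-KO (1.74 and 1.87) lie above those of WT (1.31 and 1.41), and the Myc values lie together.

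By rank, 2 regions were at least 10 percentile points higher in both Mapk8-KO libraries than in both WT libraries (3.23% of the 62, against 3.77% of all shared regions), namely the Cdk4 promoter and the Rab44 region at 45.3 kb. Another 2 were higher in WT (3.23%, against 2.64%). These were an intron of Fam133b in the Cdk6 flank (chr5:3554031-3554566), with 35, 29, 25 and 22 fragments, and a coding exon of Actl10 in the E2f1 flank (chr2:154552340-154552850), with 18, 16, 17 and 12. Their log2 changes of -0.42 and -0.23 did not pass limma (adjusted p = 0.602 and 0.845).

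**Figure D5:**
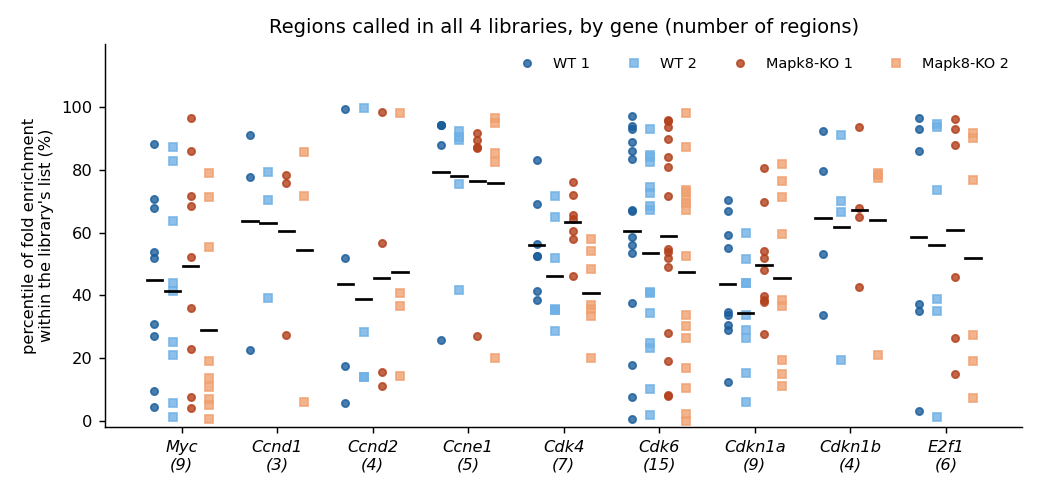
Percentile of fold enrichment within each library's list (vertical axis) for the regions of each gene called in all 4 libraries, with the number of regions under the gene's name and black bars at the means. The means for Ccne1 lie between 75.8 and 79.3 in all 4 libraries, and that for Myc is 29.2 in Mapk8-KO 2 and 41.4 to 49.5 in the others.

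The AP-1 motif TGAGTCA, looked for on either strand up to 100 bp from the summit, stood in 24 of the 114 regions (21.1%, Wilson 95% interval 14.6 to 29.4) and in 23.7% of all regions. These intervals cover counting error only. Outside promoters it stood in 22 of 71 (31.0%), against 28.0%. The 8 of these called in all 4 libraries had a median log2 change of -0.07, and 5 of the 8 were below 0. Over all AP-1 regions outside promoters the median was -0.10. E-boxes stood in 7 of the 114 (6.14%, against 4.76% of all regions), the E2F motif (TTTGGCGC, TTTCCCGC, TTTGCCGC or TTTCGCGC) in 3 (2.63%, against 0.872%), TEAD in 10 (8.77%, against 13.2%) and the CRE motif TGACGTCA in 1 (0.877%, against 0.772%).

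Among all genes with a promoter region called in all 4 libraries, the one whose scaled promoter values were most like those of Cdk4, by Euclidean distance on the log2 scale over the 4 libraries, was Bsg (distance 0.08), with 62, 47, 95 and 54 fragments. For Myc it was Thbd (distance 0.04), with 107, 72, 118 and 67 fragments. The others were Tex261 for Ccnd1, Ddr1 for Ccnd2, Lrrc42 for Ccne1, Cnot1 for Cdk6, Fig4 for Cdkn1a, Arntl for Cdkn1b and 9230104L09Rik for E2f1, at distances of 0.06 to 0.11 and out of 12164 candidates. Over so few libraries such matches are descriptions only.

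A list of 32 other genes of the same machinery (further cyclins, kinases, INK4 and CIP/KIP inhibitors, E2F, DP, retinoblastoma and MYC/MAX family members and licensing factors) held 332 regions. All 4 libraries shared 198 of these, and none passed limma's adjusted p of 0.05, while 3 (1.52%) passed with the replicate block, against 0.961% of all regions, and 7 of 199 (3.52%) without Mapk8-KO 1, against 4.25%. At an unadjusted p under 0.05, 11 (5.56%) were higher and 3 (1.52%) lower in Mapk8-KO, against 5.82% and 5.44% of all regions. The median log2 change was 0.07, against 0.05 over all regions. There were 4 WT-specific regions (1.2%, against 2.17% of all regions) and 2 Mapk8-KO-specific regions (0.602%, against 1.65%). Rank gaps stood in 4 regions toward WT (2.02%, against 2.64%) and 5 toward Mapk8-KO (2.53%, against 3.77%). Ccnd3 (cyclin D3), chosen after its values were seen, held 3 of the 11 higher regions and 3 of the 5 gaps. Its promoter had 39, 29, 52 and 48 fragments and a log2 change of 0.59 (limma, adjusted p = 0.295).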

How the data were processed

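Peak lists of 4 ATAC-seq libraries were analysed. The study's methods state that the authors aligned read pairs to mm10 with Bowtie2, discarded multiply or poorly mapped reads with samtools and ran MACS2 on paired fragments. Each library has a peak list of its own, and no control is named. The submitters' processing notes also name Trimmomatic 0.36 and STAR 2.5.3 for the series. A shift of read ends for Tn5 is not given in the sources used here. The deposited values are a fold enrichment (ratio) of the summit pileup over local background with a pseudocount of 1, −log10 p and −log10 q values, and a score made from q. The highest q was 0.0097.

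Fragments at each summit were recovered from the fold and −log10 p values, and at least 99.996% came out whole within 0.05. The recovery and the limma fit were tested on simulated data. Regions, promoters (2 kb) and start sites used the GENCODE vM21 basic annotation. Percentiles are of fold enrichment within a library's list. Fragments of the strongest summit per region were centred at library medians and tested with limma 3.58.1 in R 4.3.3 allowing a variance trend, with Benjamini-Hochberg adjustment over 40159 regions. Other steps used Python 3.11.15, pandas 2.3.3, SciPy 1.17.1 and pysam 0.24.0. DESeq2, which the authors applied to reads per region, was not used, as the files used hold no reads. The paper reports more differing regions from DESeq2 than limma called here, so a region without a call here may differ there. Named regions were each gene's promoter regions, its highest-ranked region outside promoters, and every region specific to a genotype or past the rank gap; those with an unadjusted p under 0.05, other AP-1 regions of Myc, and the further cases in the text were added after their values were seen. A further immune marker is not reported here. Same-numbered libraries were not taken as pairs. Alternatives varied the window around genes, the q threshold, list length, overlap, rank measure, centring, variance trend and replicate block, and left out each library. The genes, lists and tests were chosen with earlier results of these data known.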

Additional observations from a re-analysis of the deposited data

How the results depend on the processing

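No region of the 9 genes passed limma's adjusted p of 0.05 under any setting except without Mapk8-KO replicate 1. Over all regions limma called 243, but 0 without a variance trend (3987 at an unadjusted p under 0.05) or with log2 fold enrichment (2731), 103 with cyclic loess, 83 with median-ratio centring (chosen after seeing the data) and 10 to 1719 without each library. Median-ratio centring put the median log2 change at -0.010 for the 9 genes and 0.019 for the other cell-cycle genes, log2 fold enrichment put that of own promoters at 0.034, and assigning regions to the nearest coding start site put that of the 9 genes at 0.082. Without each library in turn, where a lone library is assumed to vary like the others, 0 to 4 regions of the 9 genes, 0 to 1 own promoters and 0 to 7 regions of the other genes were called, and medians were 0.11 to 0.20 at own promoters and 0.046 to 0.14 at the other genes. The leave-outs gave 1 to 14 WT-specific and 3 to 9 Mapk8-KO-specific regions, 4 to 16 rank gaps toward WT and 5 to 11 toward Mapk8-KO, and a difference in regions called of -9.5 to 18. Nearest start sites gave 0 WT-specific and 6 Mapk8-KO-specific regions, gaps in 0 and 4, and a difference of -5. A 10 kb window gave 1 Mapk8-KO-specific region and gaps in 1 and 1, a 100 kb window 2 WT-specific regions and 4 gaps toward Mapk8-KO. Lists of equal length gave gaps in 1 and 4 and a difference of -0.5, and a cover of 50% gave 3 WT-specific regions and 1 gap toward WT. Gaps toward Mapk8-KO numbered 4 at 5 points, 1 at 20 points and 4 with percentiles among shared regions, and those toward WT 0 at 20 points and 1 with −log10 p. Shares over all regions are not given for these specific regions and gaps, so the counts do not compare the 9 genes with other regions. With a library left out, specific regions and gaps needed agreement of fewer libraries. A changed window or gap threshold changes the counts by definition. The cause of the other shifts was not tested. The AP-1 share within 50 bp of the summit was 11.4%, against 16.9% of all regions.

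Same-numbered libraries did not deviate together (r = 0.04 across regions), so numbers were not read as pairs. With the replicate block limma called 386 regions in all, 0 of the 9 genes and 3 of the other genes, and the rank gap within pairs was passed by 3 regions toward WT and 6 toward Mapk8-KO. The sign of the promoter change turned for Myc with loess (-0.055), median ratio (-0.028) and fold (-0.21). Without each library it ran from -0.014 to 0.042 for Myc, -0.53 to 0.0012 for Ccnd1, -0.030 to 0.48 for Cdk6 and -0.20 to 0.13 for Cdkn1b. The sign held for Ccne1 (0.0058 to 0.50), Ccnd2 (0.042 to 0.68), Cdkn1a (0.16 to 0.39) and E2f1 (-0.43 to -0.12), but the size moved. The Ccnd2 promoter passed only without Mapk8-KO 1. Mapk8-KO 2 had the shortest list and the lowest median pileup, and the part of depth in its missing calls was not tested.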
